A study of Homo sapiens with 8 samples.

Results

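CD24, the gene the study targeted, and 7 other genes for surface proteins were read on 8 Affymetrix arrays. The 7 are CD164, a sialomucin, and EPCAM, PROM1, CD44, ALCAM, CD47 and ITGA6. All of these but CD164 are used to mark tumour-initiating cells of colorectal and pancreatic cancer. Members were all probe sets whose only annotated gene symbol was one of these 8, which gave 27 probe sets. The array had a single-symbol probe set for 11963 genes in all. CD24 had 6 probe sets, CD164 3, CD44 8, CD47 4, ALCAM and ITGA6 2 each, and EPCAM and PROM1 1 each.

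The study asked how the expression profile of cancer cells differs once CD24 is lowered by short hairpin RNA (shRNA) or bound by an antibody. Of the 7 groups, HT29 clones carrying 2 vectors with a CD24-directed shRNA had 2 arrays, for clone G and clone E, and the other 6 groups had 1 array each. These were an HT29 clone with 1 CD24 shRNA vector, an HT29 clone with a GFP-directed shRNA, Colo357 treated with the anti-CD24 monoclonal antibody SWA11 (diluted 1 to 40, for 72 h), untreated Colo357, antibody-treated HT29 under the same conditions, and untreated HT29. HT29 is a colorectal and Colo357 a pancreatic cancer line, both human and long established in culture. Each shRNA array stands for a single clone, and a control antibody was not analysed here. The labels do not say which arrays came from separate cultures, so every p-value measures the spread between these samples only, which may be technical.

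CD24 is a small, heavily glycosylated protein held in the outer membrane by a glycosylphosphatidylinositol (GPI) anchor. It binds P-selectin and, on immune cells, Siglec-10. CD164 is a sialomucin that takes part in the adhesion of blood progenitor cells. The remaining genes encode markers that act in adhesion to matrix (CD44, ITGA6), adhesion between cells (EPCAM, ALCAM), membrane protrusions (PROM1) and signals to phagocytes (CD47). Cells that carry these markers are commonly sorted as tumour-initiating cells.

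The values are MAS5 intensities, and differences are given as log2(intensity + 10). Some technical controls moved with the comparisons below. The dap 3′ spike control, a bacterial RNA, read 405.5 to 916.9 on the 3 CD24 shRNA clones and 595.9 and 922.9 on the 2 antibody arrays, against 274.8 to 277.1 on the GFP clone and the 2 untreated lines. Clone G also had an ACTB 3′ to 5′ ratio of 1.77 and an 18S ribosomal RNA signal of 434.8, against 1.06 to 1.17 and 14.7 to 48 on the other 7 arrays. The part of these technical values in the results was not tested. The epithelial keratin KRT8 read 6082.7 to 14029.2 over the 8 arrays. The pancreatic ductal keratin KRT7 read 7502.6 and 5468.1 in antibody-treated and untreated Colo357, against 76.9 and 38.8 in HT29. Of 4 pancreatic ductal markers above the filter, 3 were higher and 1 lower in Colo357. MSLN read 277.4 and 602.7 in antibody-treated and untreated Colo357, against 53.4 and 35.1 in HT29. TFF2 ran the other way, at 7.6 and 7.2 in Colo357, against 166.7 and 97.9 in HT29. SLC4A4 read 16.3 and 324.5 in Colo357, against 13.4 and 14 in HT29, but 1162.3 in the GFP clone. Of 6 colorectal markers, CDX1, CDX2 and GPA33 were below the array median on all 8 arrays. LGALS4 read 274.9 and 139.6 in antibody-treated and untreated Colo357, against 5625.5 and 4581.5 in HT29. VIL1 did not separate the lines, at 780 and 1123.5 in Colo357, against 1408.3 and 439.3 in HT29. CDH17, below the filter, read 8.4 and 68.8 in Colo357, against 30.4 and 6.6 in HT29. LGALS4 read 32.5 to 682.2 on the 4 shRNA clones, against 4581.5 in parental HT29, and VIL1 read 25 to 248.5 on them, against 439.3. CDH1, the epithelial cadherin, read 1.4 to 15.4 on all 4 shRNA clones, the GFP clone included, against 2172.8 in parental HT29. Because CDH1 and LGALS4 set all 4 shRNA clones apart from the parental line, a difference from parental HT29 alone cannot be assigned to the CD24 vectors, and whether the clones are the same line as the parental sample was not tested. Against the GFP clone alone, the 3 clones were at -3.37 for CD24, -2.69 for CD164, -2.24 for ITGA6, -2.72 for ALCAM and -1.04 for EPCAM (log2 differences of means over probe sets). In that comparison 1294 of 6760 genes were lower at 2-fold or more and 410 higher. The array median was 32.4 to 47.5 on the 3 clones, against 63.1 on the GFP clone and 44 on untreated HT29. Summed over 6 fibroblast markers the intensity was 117 to 249.4, and over 4 endothelial markers 33.1 to 117.5. Of 5 leukocyte markers, LYZ read 3751.2 to 5402.3 on the 6 HT29-derived arrays, and the other 4 read at most 65.8.

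CD24 was lower in the 3 CD24 shRNA clones than in both controls on each of its 6 probe sets. The targeted gene averaged 8.19 ± 0.35 log2 over its probe sets in the clones (SD, n = 3) and 11.41 ± 0.22 in the GFP clone and parental HT29 (SD, n = 2), a 9.29-fold difference. With 5 arrays, an exact permutation test (two-sided, 10 splits) cannot go below p = 0.1, and CD24 was at that value. Because the arrays hold RNA of whole cultures, fewer cells with CD24 and less CD24 RNA per cell cannot be told apart.

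The 6 probe sets of CD24 differed in size and in which clone was lowest. On 266_s_at the intensity was 57.4 in clone G, 157.5 in clone E and 160.4 in the 1-vector clone, against 2393.2 in the GFP clone and 1718.7 in parental HT29. On 209771_x_at it was 226.3, 605 and 533.1 in clones G, E and the 1-vector clone, against 6901.1 in the GFP clone and 5475.3 in HT29. Clone G was lowest on these 2 probe sets and on 208651_x_at and 216379_x_at. On 208650_s_at clone G was the highest of the 3 clones, with 1062 in clone G, 594.4 in clone E and 596.8 in the 1-vector clone, against 2310.8 in the GFP clone and 2104.8 in HT29. On 209772_s_at the clones were close, at 272.1, 258.1 and 222.7, against 1434.7 in the GFP clone and 1280.8 in HT29. The limma differences ran from -1.60 ± 0.40 (SE) on 208650_s_at to -4.12 ± 0.58 on 216379_x_at, and without the 3 probe sets whose names end in _x_at the mean difference was -2.67.

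A second vector was not tied to a lower CD24 level on all probe sets. Clones G and E averaged 0.31 below the 1-vector clone over the 6 probe sets (log2 difference -0.31), but their mean was above it on 208650_s_at and 209772_s_at by 0.41 and 0.24. On 208650_s_at only clone G was above it. Without the _x_at probe sets the difference was -0.01. Clones G and E were themselves 0.61 apart.

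The order of CD24 over the 8 arrays, by mean log2 intensity, was the GFP clone (11.56), untreated HT29 (11.25), antibody-treated HT29 (10.84), antibody-treated Colo357 (9.78), untreated Colo357 (9.65), the 1-vector clone (8.40), clone E (8.39) and clone G (7.78). The only spread within a group is that between clones G and E. Steps larger than it stood between the HT29 and the Colo357 arrays (1.06) and between untreated Colo357 and the CD24 shRNA clones (1.26). The other steps were no larger, and a single gap between 2 clones does not measure the spread within a line or a treatment.

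**Figure D1:**
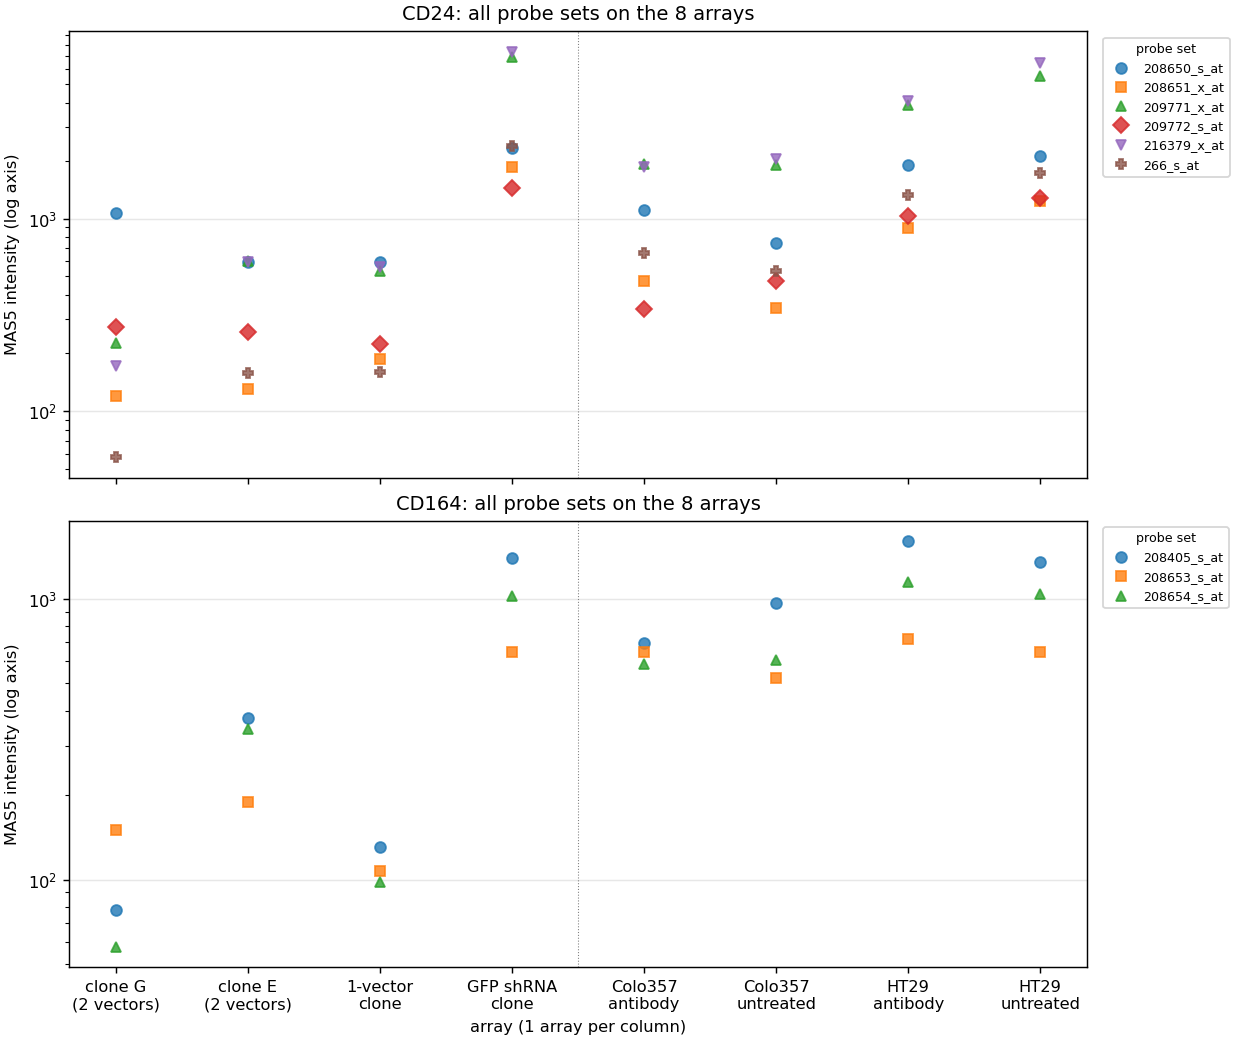
MAS5 intensity (log axis) of the 6 probe sets of CD24 and the 3 of CD164 on each of the 8 arrays, 1 point per probe set. The 3 CD24 shRNA clones on the left lie below the GFP clone and untreated HT29 on every probe set of both genes, and clone E is the highest of the 3 for CD164.

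CD164 was also lower in all 3 CD24 shRNA clones. On 208405_s_at it read 77.7 in clone G, 375.5 in clone E and 130.6 in the 1-vector clone, against 1398.2 in the GFP clone and 1359.6 in parental HT29. On 208653_s_at it read 150.5, 189.5 and 107.5 in clones G, E and the 1-vector clone, against 646.9 in the GFP clone and 644.9 in HT29. The controls were almost level with each other, and no clone overlapped them. The limma differences were -3.05 ± 0.62 on 208405_s_at, -2.08 ± 0.38 on 208653_s_at and -2.93 ± 0.68 on 208654_s_at, each with adjusted p = 0.236.

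By the root mean square difference of centred log2 values over the 8 arrays, CD164 ranked 3 among 6520 genes in likeness to CD24 (0.54). CMPK1, a pyrimidine nucleotide kinase (0.49), and LAMTOR3, a scaffold of the lysosomal Ragulator complex (0.53), were nearer, and SPAG1 (0.56) and PRELID3B (0.57) came next. Of the other members, ITGA6 ranked 18 and EPCAM 309, while ALCAM, CD47 and CD44 ranked 2262 to 2431 and PROM1 6474. CMPK1 read 90.4 in clone G, 285.8 in clone E and 147 in the 1-vector clone, against 1073 in the GFP clone and 745.4 in HT29.

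The promoter windows of CD24 and CD164 are shown because both genes were lower in all 3 CD24 shRNA clones. In the antibody pairs their means over probe sets moved in opposite directions (log2 differences of -0.41 for CD24 and 0.18 for CD164 in HT29, and 0.12 and -0.07 in Colo357). In Colo357 both genes had probe sets on both sides of 0, from -0.47 to 0.57 for CD24 and -0.47 to 0.30 for CD164. Both genes lie on the minus strand of chromosome 6. The windows hold 250 bases before and 50 after the start in RefSeq's GRCh38.p14 annotation, at chr6:106975578-106975877 for CD24 (the most upstream of 3 listed) and chr6:109382418-109382717 for CD164 (the most upstream of 2). Capitals mark the only matches found, on either strand, for the TATA box (TATAAA), the GC box (GGGCGG), the CCAAT box (CCAAT) and the E-box (CACGTG).
CD24: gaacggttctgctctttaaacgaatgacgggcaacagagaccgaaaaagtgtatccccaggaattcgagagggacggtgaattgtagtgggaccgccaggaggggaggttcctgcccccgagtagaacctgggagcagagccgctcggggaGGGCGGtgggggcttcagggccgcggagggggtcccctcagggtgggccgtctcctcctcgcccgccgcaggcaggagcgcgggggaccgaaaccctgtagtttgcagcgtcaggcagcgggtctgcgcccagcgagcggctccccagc
CD164: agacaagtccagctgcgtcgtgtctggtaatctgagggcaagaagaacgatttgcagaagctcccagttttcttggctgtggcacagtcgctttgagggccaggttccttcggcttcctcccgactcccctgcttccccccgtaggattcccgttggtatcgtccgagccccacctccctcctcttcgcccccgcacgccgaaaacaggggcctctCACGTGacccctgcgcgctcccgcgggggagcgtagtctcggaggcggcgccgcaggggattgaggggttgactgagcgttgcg
The CD24 window held 1 GC box (GGGCGG), a motif found in 45.0% of 35116 promoter windows, and the CD164 window 1 E-box (CACGTG), found in 7.26%. TATAAA was found in 11.5% of windows and CCAAT in 34.6%, and in neither of these 2. The windows had 66.7% and 63.7% G or C for CD24 and CD164, against a median of 58.7% over all windows. No motif searched was shared by the pair.

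In the limma fit of the 3 clones against both controls, 0 of the 23 member probe sets above the filter on low values passed adjusted p 0.05, as did 0% of all 11107 fitted (smallest adjusted p 0.216). At an unadjusted p under 0.05, 13 of the 23 were lower, from 5 genes, against 14.1% of all probe sets. They were 6 of CD24, the target of the shRNA, 3 of CD164, 2 of ITGA6 and 1 each of ALCAM and EPCAM. Probe sets of the same gene are repeat readings of it, so the 13 are not independent. The same 13 had all 3 clones below both controls, against 22.5% of all probe sets, and 0 had all 3 above, against 17.6%. This second count uses the same values and adds no separate evidence. Without clone E, which had the lowest dap spike of the 3 clones, 11 member probe sets passed (CD24, CD164, ITGA6 and ALCAM, all lower). They were among 1108 of all probe sets that passed, of which 15 were higher and 1093 lower.

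**Figure D2:**
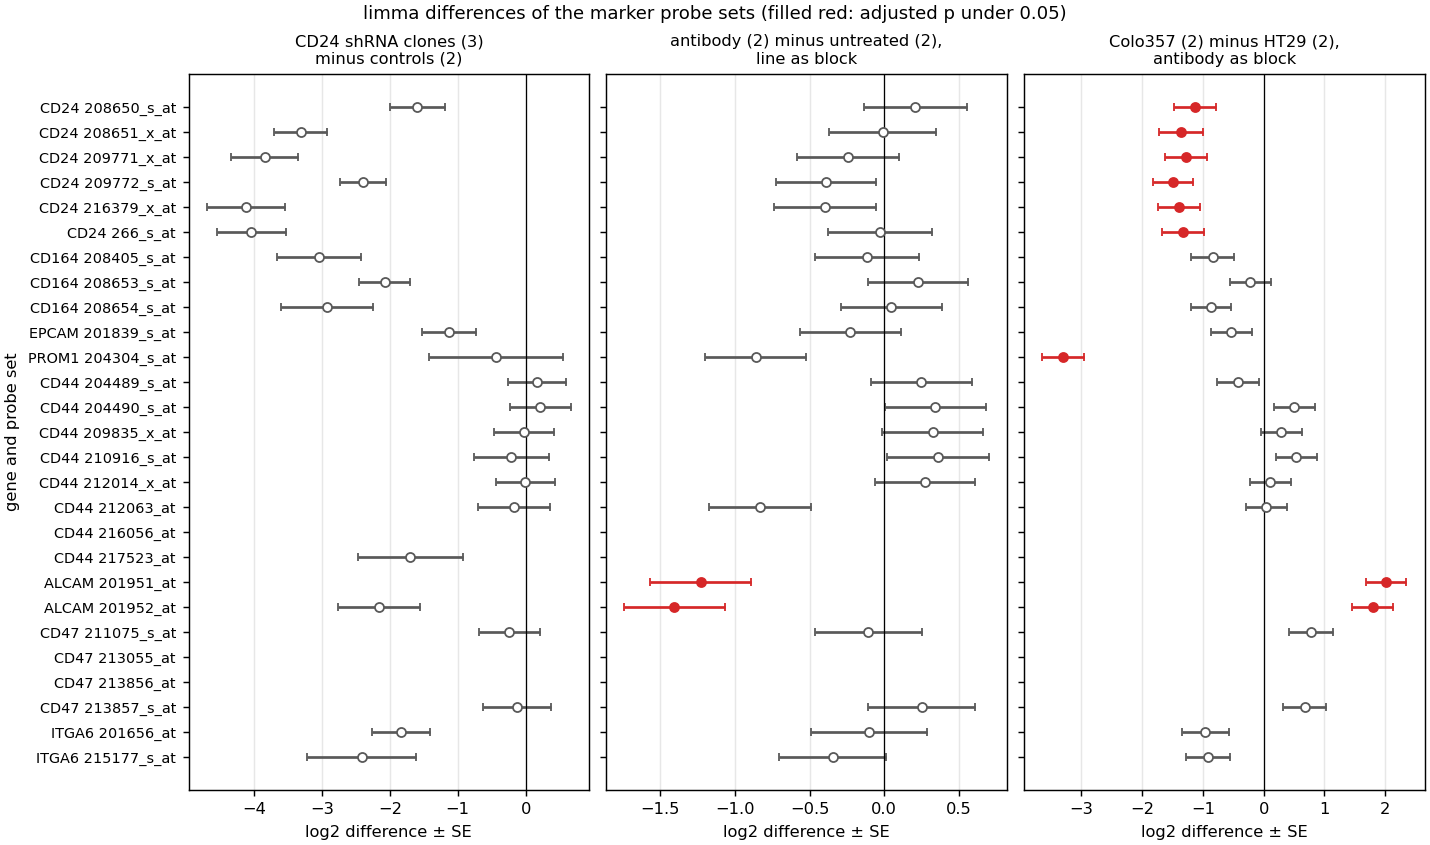
Log2 differences with limma's standard error for each member probe set above the filter, for CD24 shRNA clones minus controls (left), antibody minus untreated (middle) and Colo357 minus HT29 (right). Filled red points passed adjusted p 0.05, which were none on the left, both ALCAM probe sets in the middle, and ALCAM, CD24 and PROM1 on the right.

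ITGA6, the alpha-6 subunit of laminin-binding integrins, was lower in the clones on both probe sets. On 201656_at it read 217.3 in clone G, 367.9 in clone E and 178.9 in the 1-vector clone, against 1017.1 in the GFP clone and 783.4 in HT29. On 215177_s_at it read 49.8 in clone G, 462.4 in clone E and 219.2 in the 1-vector clone, against 1016.8 in the GFP clone and 953.9 in HT29. No clone reached a control, but clones G and E were 1.86 apart in their mean log2 over the probe sets. The limma differences were -1.83 ± 0.42 and -2.42 ± 0.80 (adjusted p = 0.236 for both). Of 6 measured partners and laminins of ITGA6, 0 passed in the clones, with a median of -0.13 against 0.04 over all genes. Of the 6, 3 were higher and 3 lower. ITGB1, a beta subunit that pairs with ITGA6, was at -1.47. DST, a plakin of hemidesmosomes, was at -1.35, with clone E (98.3) above HT29 (67.8). LAMB3, a laminin chain, was at 0.82, with all 3 clones (699.2 to 1366.9) above the GFP clone (652.1) and HT29 (384.4).

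EPCAM, an adhesion molecule of epithelial cells, stayed bright on every array and was moderately lower in the clones. It read 1613.6 in clone G, 2420.9 in clone E and 1307.8 in the 1-vector clone, against 3546.3 in the GFP clone and 4027.6 in HT29. The difference of -1.13 ± 0.40 did not pass (adjusted p = 0.236), and the groups did not overlap. Of 8 measured EPCAM partners and proteolysis genes, 0 passed, with a median of 0.39. The tetraspanin TSPAN8 read 664.3 to 1814.6 in the 3 clones, against 3478.5 in the GFP clone and 5924.4 in HT29, a difference of -2.01. FHL2, a LIM-domain protein that binds the intracellular fragment of EPCAM, read 910.1 to 1436.6 in the 3 clones, against 424.4 in the GFP clone and 464.1 in HT29, a difference of 1.33.

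ALCAM, an immunoglobulin-family adhesion molecule that binds CD6, was dim in the clones. On 201952_at it read 46.7 in clone G, 100.8 in clone E and 22.6 in the 1-vector clone, against 377.9 in the GFP clone and 168.1 in HT29. On 201951_at, below the filter for this comparison, it read 6.1, 28.9 and 15.3 in clones G, E and the 1-vector clone, against 107.7 in the GFP clone and 47.5 in HT29. The clones lay below both controls on both probe sets, and the controls themselves were 1.12 apart on 201952_at. The difference on 201952_at was -2.16 ± 0.60 (limma adjusted p = 0.236).

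CD44, the hyaluronan receptor, took different sides of the 2 controls. On 209835_x_at it read 1544.5 in clone G, 1555 in clone E and 1712.1 in the 1-vector clone, against 2457.7 in the GFP clone and 1085 in HT29. The clones lay between the controls on this probe set. Averaged over its 6 bright probe sets, CD44 was 0.59 below the GFP clone (log2 difference -0.59) and 0.58 above parental HT29. Against both controls the 6 differences were -0.21 to 0.21, with adjusted p = 0.80 to 0.996. The seventh fitted probe set, the dim 217523_at, was at -1.70 ± 0.77 (adjusted p = 0.277).

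Of 9 CD44 ligands, linkers and sheddases above the filter, 0 passed in the clones, with a median of -0.68. ADAM10, a protease that cleaves CD44, read 86.8 to 315.1 in the clones, against 1020.8 in the GFP clone and 437.3 in HT29 (difference -2.09). The cytoskeletal linker RDX was at -1.62, with clone E (221.5) above HT29 (157.9) and the GFP clone at 553.1. ESRP1, a splicing factor that favours variant exons of CD44, read 233.3 to 700 in the clones, against 741.3 in the GFP clone and 1167.7 in HT29 (difference -1.26). NF2, which encodes merlin and was named after its values were seen, had all 3 clones above both controls (difference 1.19).

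PROM1, a pentaspan protein of membrane protrusions, also depended on the control. It read 262.9 in clone G, 903.4 in clone E and 553.2 in the 1-vector clone, against 2305.9 in the GFP clone and 201.8 in HT29. All 3 clones lay below the GFP clone and above the parental line, and the difference from both together was -0.43 ± 0.99 (limma adjusted p = 0.818).

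CD47, the ligand of the phagocyte receptor SIRPA, had clones on both sides of the controls. On 213857_s_at it read 692.7 in clone G, 800.4 in clone E and 292.9 in the 1-vector clone, against 530.9 in the GFP clone and 677.6 in HT29. The groups overlapped, and the differences were -0.13 ± 0.50 here and -0.24 ± 0.45 on 211075_s_at (adjusted p = 0.894 and 0.777). Its 2 other probe sets, 213055_at and 213856_at, were below the array median on all 8 arrays, as was 216056_at of CD44.

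**Figure D3:**
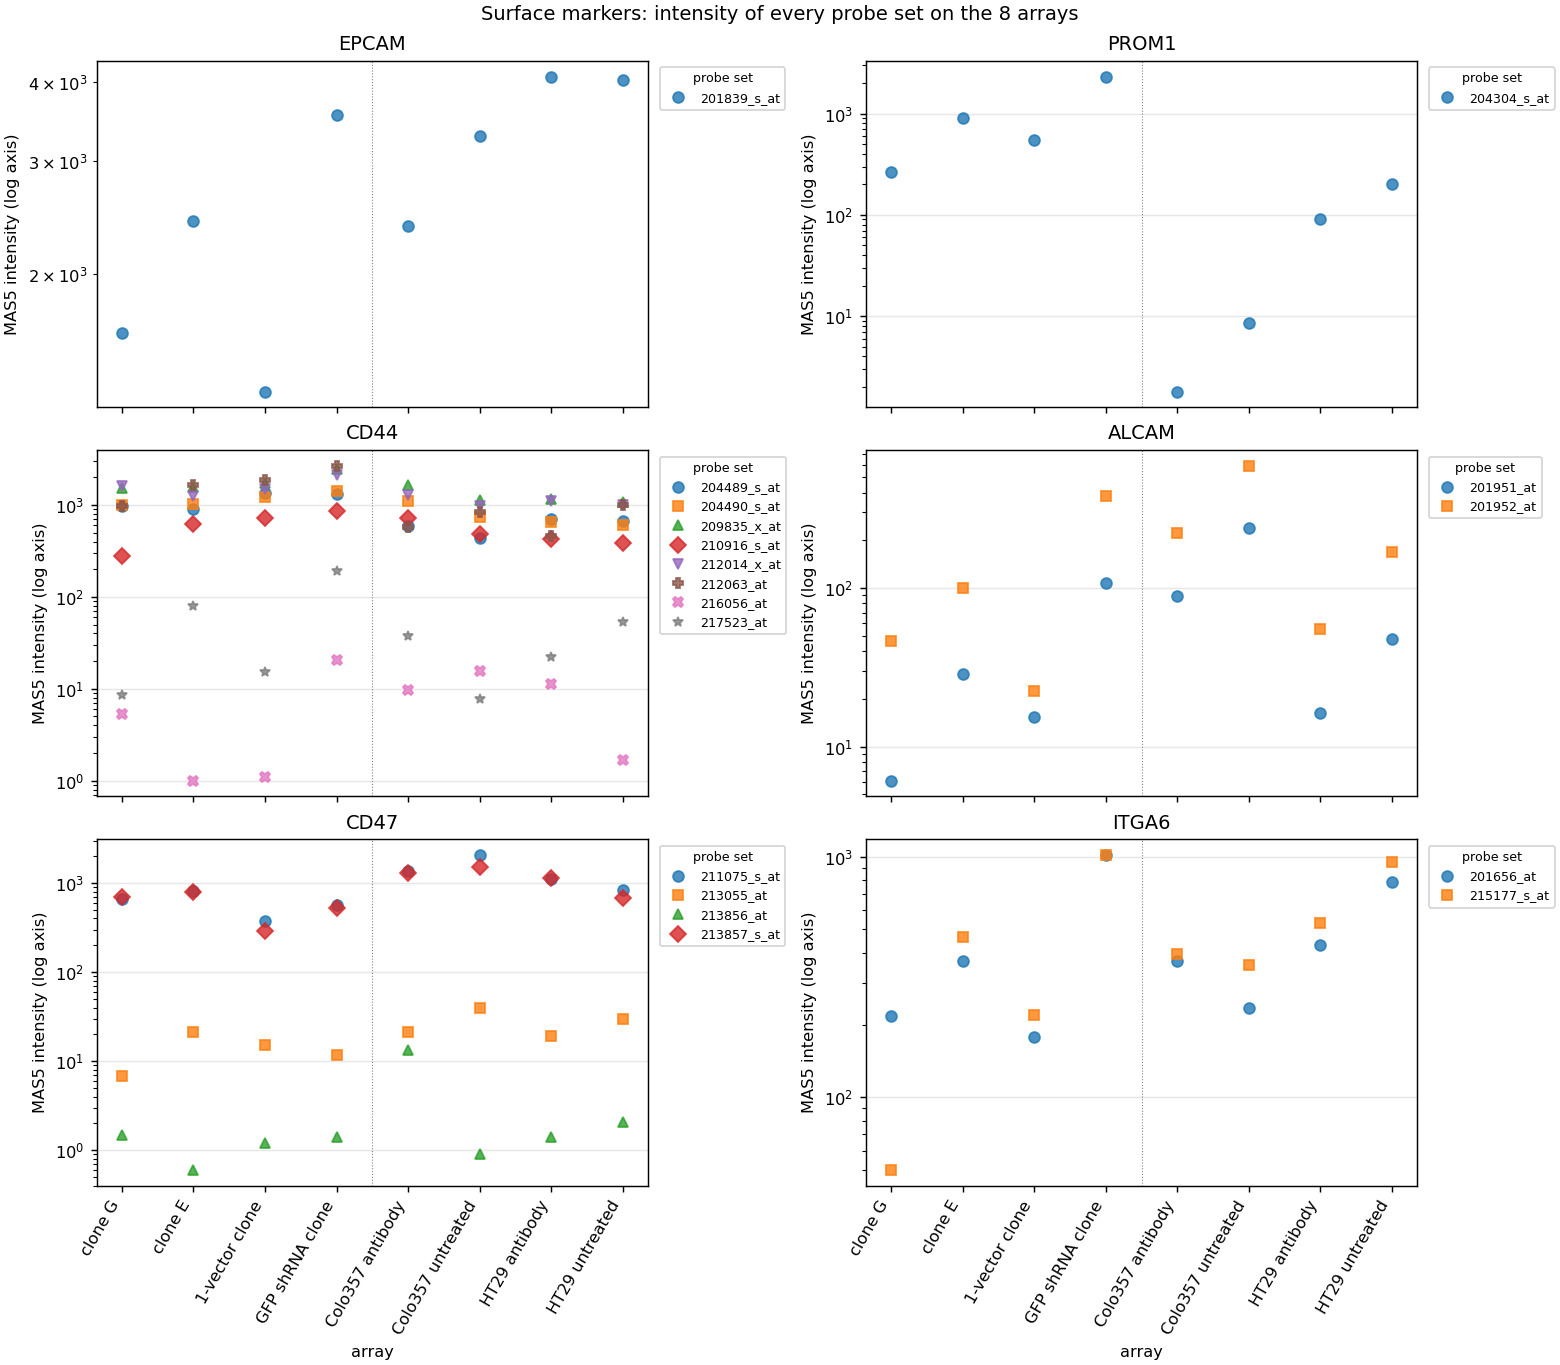
MAS5 intensity (log axis, a different range in each panel) of every probe set of EPCAM, PROM1, CD44, ALCAM, CD47 and ITGA6 on the 8 arrays. PROM1 is highest in the GFP clone (2305.9) and lowest in Colo357 (1.8 and 8.5), and the clones lie below the GFP clone for EPCAM, ALCAM and ITGA6.

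The GFP clone and parental HT29, the 2 controls, differed from each other on some members. At 2-fold or more, 9 of 24 member probe sets were higher in the GFP clone, against 14.6% of all, and 0 were lower, against 6.47%. The 9 were 6 probe sets of CD44, both of ALCAM and that of PROM1. PROM1 was 3.45 higher on the log2 scale, the 7 CD44 probe sets above the filter 0.98 to 1.66 and ALCAM 1.03 and 1.12. CD164 (0.01), EPCAM (-0.18), ITGA6 (0.23) and CD24 (0.31) were closer, by their means over probe sets. With 1 array each there is no error and no test.

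Between 2 vectors and 1 vector, also without a test because the single 1-vector clone has no spread, 2 of 22 member probe sets were higher at 2-fold or more (ALCAM 201952_at and CD47 213857_s_at), against 5.95% of all, and 0 were lower, against 3.96%. CD47 213857_s_at was 1.32 higher and ALCAM 201952_at 1.28 higher in the 2-vector clones. The CD47 values in clones G and E (692.7 and 800.4) both lay above that of the 1-vector clone (292.9).

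The antibody comparison uses the untreated HT29 array that also serves as a control of the clones. ALCAM was the only member that fell in the limma fit of both lines. On 201952_at it read 222.9 in antibody-treated Colo357 and 55.1 in antibody-treated HT29, against 588.1 in untreated Colo357 and 168.1 in untreated HT29. On 201951_at it read 88.9 in antibody-treated Colo357 and 16.3 in antibody-treated HT29, against 239.3 in untreated Colo357 and 47.5 in untreated HT29. Within each line the treated array was the lower on both probe sets. The differences were -1.41 ± 0.34 (adjusted p = 0.0259) and -1.23 ± 0.34 (adjusted p = 0.0429), on 14.3 degrees of freedom of which 1 was residual.

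These were 2 of 23 member probe sets, against 4.73% of all probe sets that fell. The call is not stable, since both probe sets failed with quantile normalization, without the filter, with a pseudocount of 1 and in the fit of all 8 arrays. The ALCAM differences stayed negative under all of these, at -1.23 to -1.49. With a pseudocount of 50 only 201952_at passed, and 201951_at was at -0.81 (adjusted p = 0.114). The dap spike was higher on both treated arrays, and its part in the result was not tested.

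CD24, the antibody's own target, did not pass this test. On 216379_x_at CD24 read 1848.9 in antibody-treated Colo357 and 4089.7 in antibody-treated HT29, against 2038.7 in untreated Colo357 and 6425.1 in untreated HT29. On 208650_s_at it read 1104 in antibody-treated Colo357 and 1898.9 in antibody-treated HT29, against 742.1 in untreated Colo357 and 2104.8 in untreated HT29. All 6 probe sets were lower in treated HT29, while Colo357 had probe sets on both sides. Over both lines the 6 differences were -0.40 to 0.21 (limma adjusted p = 0.509 to 0.989).

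The other members did not pass over both lines either. PROM1 was at -0.86 ± 0.34 (adjusted p = 0.133), reading 1.8 in antibody-treated Colo357 and 90.6 in antibody-treated HT29, against 8.5 in untreated Colo357 and 201.8 in untreated HT29. CD44 212063_at was at -0.83 ± 0.34 (adjusted p = 0.148), while the other 5 fitted CD44 probe sets were at 0.25 to 0.36. That probe set read 573.2 in antibody-treated Colo357 and 455.1 in antibody-treated HT29, against 846.1 in untreated Colo357 and 996.3 in untreated HT29. The probe sets of CD44 thus disagreed in direction. CD164 (-0.12 to 0.22), EPCAM (-0.23), CD47 (-0.11 and 0.25) and ITGA6 (-0.10 and -0.34) had adjusted p of 0.597 to 0.948.

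Within single lines, where 1 array stands against 1, 3 of 22 member probe sets were lower at 2-fold or more in antibody-treated HT29 (ALCAM 201952_at, CD44 212063_at and PROM1), against 8.17% of all, and 0 were higher, against 4.61%. In antibody-treated Colo357, 2 of 22 were lower (both of ALCAM), against 13.9%, and 0 were higher, against 10.2%.

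**Figure D4:**
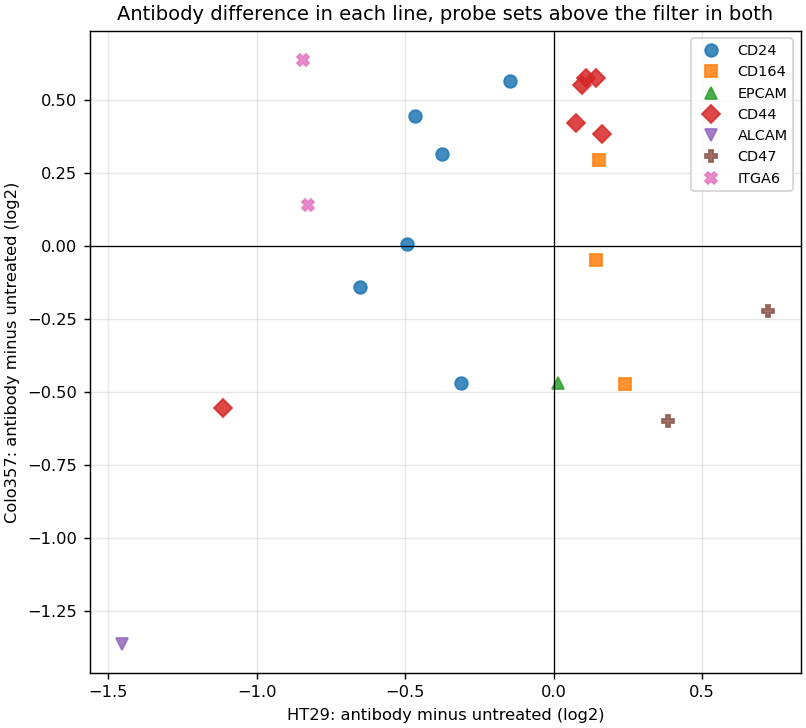
Log2 difference, antibody minus untreated, in HT29 (x axis) and in Colo357 (y axis) for the 21 member probe sets above the filter in both lines, 1 point each and 1 array per condition. ALCAM lies lowest in both lines, ITGA6 and most CD24 points lie left of 0 and above it, and CD47 lies right of 0 and below it.

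Of the listed partners, 4 passed the same antibody fit, while 0 of all probe sets passed with quantile normalization. LAMB3, a chain of the ITGA6 ligand laminin-332, rose by 1.69 (adjusted p = 0.0153), reading 6453.7 in antibody-treated Colo357 and 913.2 in antibody-treated HT29, against 1437.1 in untreated Colo357 and 384.4 in untreated HT29. THBS1, the CD47 ligand thrombospondin-1, rose by 1.80 (adjusted p = 0.0141), reading 441.3 in antibody-treated Colo357 and 80.4 in antibody-treated HT29, against 75.9 in untreated Colo357 and 29.4 in untreated HT29. KLF4, a transcription factor counted among the tumour-initiating cell markers, rose by 1.59 (adjusted p = 0.0172). ANK3, an ankyrin that can link CD44 to the cytoskeleton, fell by 2.87 (adjusted p = 0.00251), reading 22.4 in antibody-treated Colo357 and 3.2 in antibody-treated HT29, against 308.3 in untreated Colo357 and 61.8 in untreated HT29. Both treated ANK3 values lay below the array medians (50.3 and 41), so it passed the filter only through its untreated values. By list, 1 of 6 ITGA6 partners, 1 of 3 CD47 ligands and 1 of 10 other tumour-initiating cell markers rose, and 1 of 10 CD44 ligands, linkers and sheddases fell, against 169 genes that rose and 306 that fell of all 6819 genes. Of 6 CD24 ligands and raft partners, 8 EPCAM partners, 5 sialomucins and 10 GPI anchor genes above the filter, 0 passed. Over both lines all 6 CD24 ligands and raft partners had negative differences, against 3490 of all 6819 genes. Their median was -0.47, against -0.02 over all genes. Within single lines, 3 were lower and 2 higher of the 5 above the filter in HT29, and all 6 were lower in Colo357.

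Colo357 and HT29 differed on 3 of the 8 members in the limma fit of the same 4 arrays, with the antibody as a block. CD24 was lower in Colo357 on all 6 probe sets, by 1.13 to 1.49 on the log2 scale (differences -1.13 to -1.49, adjusted p = 0.00467 to 0.0292). PROM1 read 1.8 and 8.5 in antibody-treated and untreated Colo357, against 90.6 and 201.8 in HT29. The difference of -3.30 ± 0.34 (adjusted p = 3.83e-06) depends on the pseudocount, being -1.77 with 50 and -4.72 with 1. Its Colo357 values lay below the array medians (50.3 and 56.5), so PROM1 passed the filter only through its HT29 values. The CD24 and PROM1 probe sets, 7 of 23 member probe sets, stand against 10.1% of all that were lower. ALCAM was higher in Colo357 on both probe sets, by 2.01 ± 0.34 and 1.79 ± 0.34 (adjusted p = 0.00044 and 0.00115), 2 of 23 against 12.8% of all. In the fit of all 8 arrays only PROM1 passed, and without the filter 5 member probe sets of ALCAM, CD24 and PROM1 did.

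The remaining members did not pass between the lines. CD47 was at 0.78 ± 0.36 and 0.68 ± 0.36 (adjusted p = 0.139 and 0.198), ITGA6 at -0.96 and -0.91 (adjusted p = 0.0921 and 0.0835), and CD164 at -0.84, -0.22 and -0.87 (adjusted p = 0.0799 to 0.694). EPCAM was at -0.53 (adjusted p = 0.296) and the 6 CD44 probe sets at -0.42 to 0.54 (adjusted p = 0.287 to 0.943). Of 6 CD24 ligands and raft partners 2 were higher in Colo357, and of 10 CD44 ligands, linkers and sheddases 5 were higher, with 0 lower on either list, against 921 higher and 696 lower of all 6819 genes. L1CAM, an adhesion molecule that binds CD24, read 244.5 and 582.7 in antibody-treated and untreated Colo357, against 4.2 and 3.7 in HT29 (difference 4.80, adjusted p = 2.54e-07). SPP1, the CD44 ligand osteopontin, read 1218.3 and 2169.9 in Colo357, against 18.9 and 17.9 in HT29 (difference 5.85, adjusted p = 2.46e-08). In HT29 both L1CAM and SPP1 lay below the array medians (41 and 44), so they passed the filter only through their Colo357 values.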

How the data were processed

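RNA of 8 cell samples was measured on Affymetrix arrays. The deposited values are linear probe set intensities, computed with MAS5 per the submitters' processing notes, in a version not given in the sources used here. Every array had the same trimmed mean of 249.9, so no further scaling was applied to the deposited intensity values. Array medians still differed, from 32.4 (clone G) to 63.1 (GFP clone), and quantile normalization was run as an alternative. No detection calls were used, and probe sets were named from the platform annotation with symbols updated through RefSeq.

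From these deposited intensities log2(intensity + 10) was computed, 10 being near the 25th percentile of non-control values (10.1), which understates differences of dim probe sets. A comparison kept probe sets whose mean over its own arrays exceeded the median over non-control probe sets. All of these were fitted with limma 3.58.1 in R 4.3.3 (lmFit and eBayes), with Benjamini-Hochberg adjustment over the whole fit and a threshold of 0.05. The clones were set against the GFP clone and untreated HT29, the antibody was tested over both lines with the line as a block, and the lines with the antibody as a block. Single-array comparisons counted probe sets at 2-fold or more. The fits were checked on simulated data. Of 50 probe sets changed 2-fold, the clone fit recovered 1, the antibody fit 10 and the line fit 13. Of 50 changed 4-fold they recovered 26, 49 and 50. Precision is limited by having only 8 arrays.

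The members, gene lists and tests were chosen with earlier results of these data known. Genes named besides the members are the 5 most like CD24 and, per list and comparison, up to 4 that passed or, failing that, differed most. Tissue markers, NF2 and the genes between CD24 and CD164 were named outside this rule, after their values were seen. A listed gene was read on its brightest single-symbol probe set. Alternatives were quantile normalization, pseudocounts of 50 and 1, no filter, a fit of all 8 arrays, no _x_at probe sets, and leaving out each array of the clone comparison. Dates and batches were not given in the sources used here.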

Additional observations from a re-analysis of the deposited data

Results flagged for a closer look

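For 6 members the antibody arrays moved in opposite directions in the lines, by the mean over probe sets, with 1 array per condition, so the difference was not tested. Given as the Colo357 difference minus the HT29 difference on the log2 scale, these gaps were 1.23 for ITGA6, 0.53 for CD24, 0.41 for CD44, -0.25 for CD164, -0.48 for EPCAM and -0.96 for CD47. For CD44 all 6 fitted probe sets moved the same way in both lines, and the negative HT29 mean comes from 212063_at. For EPCAM the HT29 difference was 0.01 and changed sign with quantile normalization.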

How the results depend on the processing

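The mean CD24 difference between clones and controls stayed between -2.67 and -3.37 under every alternative run. The clone comparison of all probe sets (0 in the report) gave 5 in the fit of all 8 arrays and 3 with a pseudocount of 50, all 3 of CD24, and 0 to 1108 when single arrays were left out, with 28 without the GFP clone and 1108 (15 higher, 1093 lower) without clone E. Member probe sets numbered 0 to 11 over the same omissions, 11 being the count without clone E. Where an omission left 1 control, that array was assumed to vary like the others. For the antibody over both lines (2 member probe sets and 777 of all), a pseudocount of 50 gave 1 and 420, and a pseudocount of 1 gave 0 and 344. The limma fit of all 8 arrays, no filter and quantile normalization gave 0 members and 0 of all probe sets, with 519, 3366 and 2421 of all at an unadjusted p under 0.05. Between the lines (9 members and 2543 of all), the fit of all 8 arrays gave 1 and 732, and no filter gave 5 members. Without a filter 4 member probe sets were at 2-fold in antibody-treated Colo357, and with a pseudocount of 50 1 was at 2-fold between 2 vectors and 1. With quantile normalization EPCAM was at -0.052 in place of 0.01 in antibody-treated HT29 and at 0.057 in place of -0.18 in the GFP clone against HT29. Of the other values of single members under alternatives, 177 moved by less than the SD between clones G and E, the only spread within a group, and 3 moved more. Comparisons of single arrays have no spread of their own, and PROM1 in antibody-treated Colo357 was at -1.76 with a pseudocount of 1 and -0.18 with 50, against -0.65. The cause of these changes was not tested. No paired analysis was possible because the groups share fewer than 2 replicate numbers, other than the antibody test, which pairs arrays by line through its block. With 8 arrays, 1 residual degree of freedom in the antibody fit and no detection calls, dim probe sets such as those of ALCAM have the least certain values.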

Other observations

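Genes that lie between CD24 and CD164 in RefSeq's gene order were read after the values of both had been seen, as a description with no test. Of 16 protein-coding genes 8 had a single-symbol probe set and 6 were above the filter. In 5 of these 6 the 3 CD24 shRNA clones lay below both controls, against 1366 of 6760 genes in the same comparison. The log2 differences were -1.51 for SEC63, which acts in protein import into the endoplasmic reticulum, -1.46 for SESN1, a stress-induced sestrin, -1.17 for the transcription factor FOXO3, -0.85 for the sorting nexin SNX3 and -0.34 for PDSS2. SOBP was at 1.37, with overlapping groups. Clone E had the highest value of the 3 clones for SEC63, SNX3, FOXO3 and SESN1.

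Among 5 other sialomucins and surface mucins above the filter, 1 had all 3 CD24 shRNA clones below both controls, against 1366 of 6760 genes. This was MUC13, which read 10 to 20.6 in the clones, against 24.5 in the GFP clone and 180.4 in parental HT29. On all 4 shRNA clones MUC13 lay below the array medians (32.4 to 63.1), so it passed the filter only through parental HT29. The step from the 3 clones to the GFP clone is thus between low values. CD99 read 1005.3 in clone G, 666.5 in clone E, 663.1 in the 1-vector clone and 809.5 in the GFP clone, against 16.4 in parental HT29, so it separated all 4 shRNA clones from the parental line. ALDH1A1, an aldehyde dehydrogenase used to mark tumour-initiating cells, read 2.3 to 14.9 in the 3 CD24 shRNA clones and 86.4 in the GFP clone, against 4320.2 in parental HT29. Among 10 genes of GPI anchor synthesis and attachment above the filter, 0 passed in the clones, with a median of -0.21 against 0.04 over all genes.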
